A study of Mus musculus with 6 samples.

Results

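The genes described here are 10 regulators of the epithelial-mesenchymal transition, the change in which epithelial cells loosen their junctions and take on a migratory form. The rows of Snai1, Snai2, Twist1, Twist2, Zeb1, Zeb2, Prrx1, Grhl2, Esrp1 and Esrp2 were taken by gene symbol, and all 10 were found among the 24346 symbols of the deposited tables. All 6 libraries were mRNA sequencing libraries of 4T1, a metastatic mammary carcinoma line of the mouse. They comprised 2 libraries of shRNA1 cells and 2 of shRNA3 cells, in each of which a different short hairpin RNA was directed at the noncoding transcript AU021063, and 2 of WT cells, which had been mock transfected. The labels name no cells with a non-targeting hairpin and do not say whether the hairpin cells were clones. Nor do they tell whether replicates were grown apart, so p-values here measure the spread between single libraries, which may be technical.

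The factors fall into opposing sets. SNAIL proteins (Snai1, Snai2), TWIST proteins (Twist1, Twist2), ZEB proteins (Zeb1, Zeb2) and the homeobox protein Prrx1 promote the mesenchymal state. SNAIL and ZEB proteins bind E-box sequences and repress epithelial genes such as the E-cadherin gene Cdh1. Grhl2 is a transcription factor that maintains epithelial genes and, in human mammary cells, is known to oppose ZEB1. Esrp1 and Esrp2 are RNA-binding proteins that favour the epithelial splice forms of genes such as Fgfr2, Cd44 and Ctnnd1. The values here are levels of whole genes, so splice forms were not measured.

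The values are in FPKM, fragments per length of transcript and depth of library, and levels of different genes can be compared on this scale. AU021063, the target of the hairpins, was at 1.04 and 0.572 FPKM with shRNA1 and 0.785 and 0 FPKM with shRNA3, against 1.82 and 1.67 FPKM in WT. The 4 knockdown values were all lower than either WT value (exact permutation test, two-sided p = 0.133, the smallest that 4 against 2 libraries can give). That arrangement was shown by 25.5% of the 11079 genes in the fit described below. The mean of AU021063 was below the 1 FPKM that admitted genes to that fit, and the share among genes at its level was not computed. AU021063 overlaps A330009N23Rik on the other strand. The absolute depth is not given by the files, and relative depth, from ratios between low values, was 86.8% to 105% of that of WT replicate 1. Replicates differed by a median of 4.32% to 4.47% over the 6943 genes that averaged 10 FPKM or more. Of the 7 carcinoma markers examined, Krt8 and Krt18 lay between 263 and 587 FPKM in all 6 libraries, the claudin gene Cldn3 between 21.8 and 31.0 FPKM and Krt7 between 7.89 and 14.7 FPKM. Epcam lay between 2.04 and 5.15 FPKM, Cdh1 between 1.22 and 1.84 FPKM, and another claudin gene, Cldn7, between 0 and 0.236 FPKM. Of 8 fibroblast markers, 5 did not exceed 0.1 FPKM in any library, including Col3a1 and Thy1 at 0 throughout, while 3 were expressed. The fibroblast markers summed to 61.3 and 62.0 FPKM in the shRNA1 libraries and 59.8 and 63.7 FPKM in the shRNA3 libraries, against 70.0 and 70.8 FPKM in WT. The lower sum in knockdown was that of Pdgfra, at 37.9 to 41.9 FPKM in knockdown and 49.7 to 50.0 FPKM in WT, whereas Pdgfrb averaged 19.6 FPKM in knockdown and 19.9 FPKM in WT, and Col1a1 was 2.38-fold WT. Of 7 leukocyte markers, 6 did not exceed 0.1 FPKM and Ptprc was at 0 in all 6 libraries, so the summed level of that list, 16.02 to 28.1 FPKM in knockdown against 6.51 and 6.69 FPKM in WT, was nearly all that of the lysosomal gene Cd68. Of 5 endothelial markers 4 did not exceed 0.1 FPKM in any group, and Pecam1 stayed at or below 0.16 FPKM.

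Expression of the factors was carried by 1 member of each paired family. Taking a 6-library mean of 1 FPKM or more as expressed, 4 of the 10 were expressed: Snai1, Twist1, Zeb2 and Esrp2. Taking at most 0.1 FPKM in every library as silent, 3 were silent: Snai2, Twist2 and Esrp1. The remaining 3, Zeb1, Prrx1 and Grhl2, were listed at low values between 0 and 0.223 FPKM. Among all 24346 symbols, 45.5% were expressed and 43.3% silent by the same rules. The limit of 0.1 FPKM decides the middle class: with 0.5 FPKM or 1 FPKM as the limit all 6 factors that were not expressed count as silent, and without shRNA3 replicate 2 the number of silent factors is 4, since Zeb1 then stays below 0.1 FPKM.

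**Figure D1:**
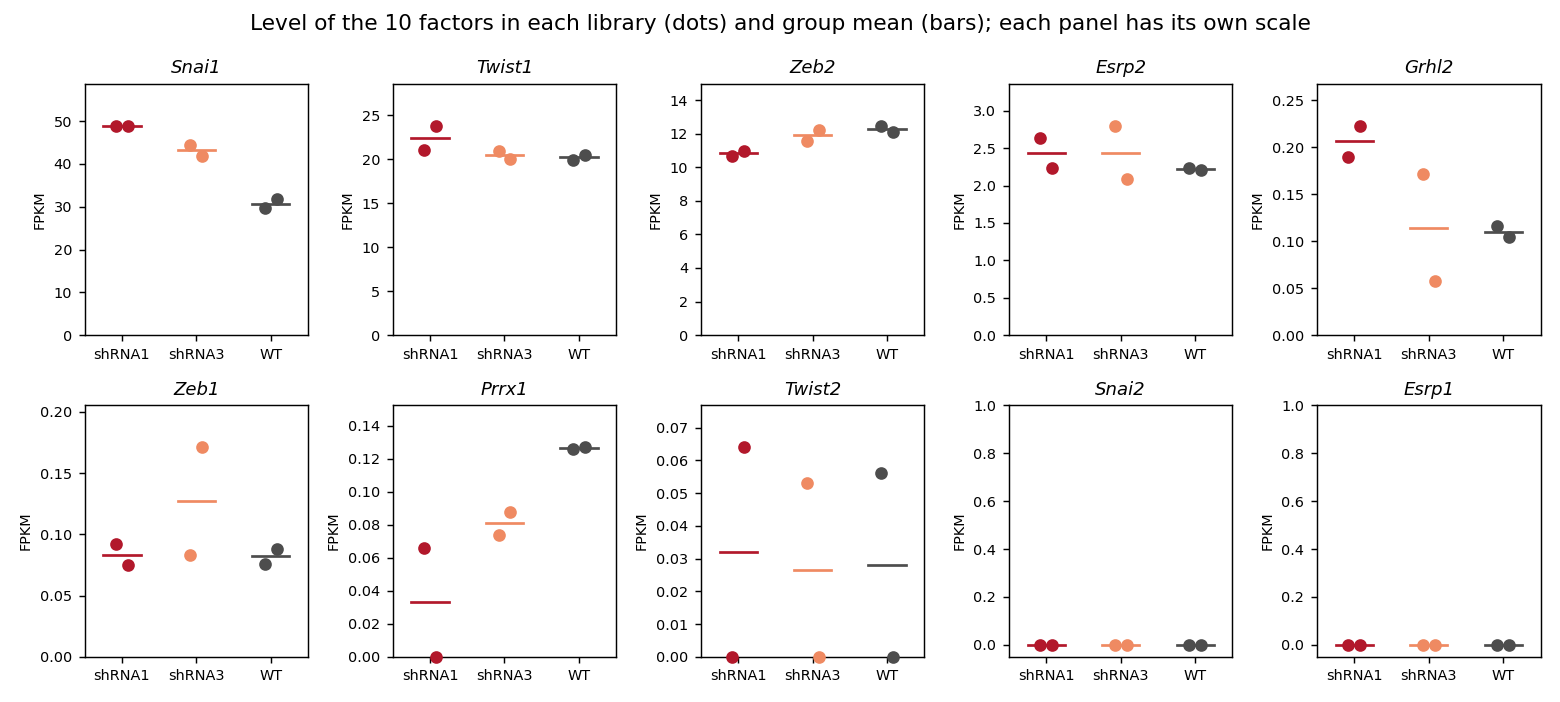
Level in FPKM (vertical axis, with its own scale in each panel) of each of the 10 factors in the libraries of shRNA1, shRNA3 and WT cells; dots are single libraries and bars are means of 2. For Snai1 all 4 knockdown libraries, at 41.9 to 49.0 FPKM, sit above both WT libraries, while Snai2 and Esrp1 are at 0 throughout.

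Of the SNAIL family, Snai1 had the highest level of all 10 factors. Its level was 48.8 and 49.0 FPKM in the shRNA1 libraries and 44.5 and 41.9 FPKM in the shRNA3 libraries, against 29.7 and 31.8 FPKM in the WT libraries. Every knockdown library was above both WT libraries, and the lowest of them was above the highest WT library by more than the replicates of any group differed. In mm10 the gene spans chr2:167538195-167542814 on the plus strand. Snai2, the gene of SLUG, was listed at 0 in all 6 libraries, as were 8630 of all symbols (35.4%). Of 21 genes that every cell uses, none was listed at 0 in any library, the lowest value being 14.1 FPKM. Genes at such levels do not show whether a transcript of low level would be listed at 0. The mean of Snai1 over the 6 libraries exceeded that of 79.2% of the 11079 expressed symbols, whose median was 15.0 FPKM.

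Of the TWIST family, Twist1, a basic helix-loop-helix factor that pairs with E proteins, was at 21.0 and 23.8 FPKM with shRNA1 and 20.9 and 19.99 FPKM with shRNA3, against 19.9 and 20.5 FPKM in WT. The shRNA3 and WT libraries overlapped. Both shRNA1 libraries were above both WT libraries, and the share of all genes with that arrangement was not computed. The shRNA1 libraries, whose mean was 1.11-fold that of WT, differed from each other by 12.4% of their mean. The gene spans chr12:33957671-33959829 on the plus strand. Twist2 was listed at 0 and 0.064 FPKM with shRNA1, 0.053 and 0 FPKM with shRNA3, and 0.056 and 0 FPKM in WT. Scaled by relative depth, its 3 values above 0 came out as the same whole number of steps, within 0.05 of a step, and each was read as 1 fragment. On that reading a value of 0 allows up to 3 fragments, which is 0.169 to 0.187 FPKM in the libraries at 0, a limit for counting error alone. Equal steps cannot tell 1 fragment from a larger shared number, so this limit depends on the reading. On the same reading Twist2 rests on single fragments, and no difference between groups was detectable at this depth.

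The ZEB family was represented by Zeb2. Zeb2, a zinc finger and homeodomain repressor, was at 10.7 and 11.0 FPKM with shRNA1 and 11.6 and 12.2 FPKM with shRNA3, against 12.5 and 12.1 FPKM in WT. Both shRNA1 libraries were below both WT libraries, and the shRNA3 libraries reached into the WT range. The share of all genes with shRNA1 below WT in this way was not computed. The gene spans chr2:44983632-45117395 on the minus strand. Zeb1 was at 0.092 and 0.075 FPKM with shRNA1 and 0.083 and 0.171 FPKM with shRNA3, against 0.076 and 0.088 FPKM in WT, so its groups overlapped, with shRNA3 replicate 2 the highest. Zeb2 exceeded Zeb1 by 71.5 to 164 times within single libraries, with a median of 138 times, the lowest being that of shRNA3 replicate 2. The values of Zeb1 did not exceed 0.171 FPKM and its fragment numbers could not be recovered, so the size of these ratios is uncertain. The antisense gene Zeb2os, whose 3381 bases lie inside the span of Zeb2 on the opposite strand, was at 6.17 and 5.17 FPKM with shRNA1 and 6.17 and 4.58 FPKM with shRNA3, against 3.87 and 4.76 FPKM in WT. Over both hairpins the log2 change of Zeb2os was 0.29 (limma, Benjamini-Hochberg adjusted p = 0.0798). No source used here gives the strand setting of the authors' quantification, and the reads of Zeb2 and Zeb2os may therefore be mixed.

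Prrx1, a homeobox factor of mesenchymal and limb tissue, was at 0.066 and 0 FPKM with shRNA1 and 0.074 and 0.088 FPKM with shRNA3, against 0.126 and 0.127 FPKM in WT. Its 4 knockdown values were lower than either WT value, and the exact permutation test gave the smallest p it can (p = 0.133, two-sided). The same arrangement was shown by 25.5% of the 11079 tested genes. Those genes averaged 1 FPKM or more and Prrx1 is not among them, and the share among genes at its level was not computed. Its fragment numbers could not be recovered, and no fold is given at such values. Fewer cells with the transcript and less of it per cell cannot be told apart in RNA of whole cultures.

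On the epithelial side, Esrp2 was the factor that was expressed. Its level was 2.64 and 2.23 FPKM with shRNA1 and 2.80 and 2.08 FPKM with shRNA3, against 2.23 and 2.21 FPKM in WT. The knockdown libraries spread around the WT values, and the 2 shRNA3 libraries differed by 29.5% of their mean. The gene spans chr8:106130319-106136974 on the minus strand, and its mean level exceeded 8.17% of the expressed symbols. Its annotated span shares 219 bases with Nfatc3 on the opposite strand, a gene at 17.8 FPKM on average, with the same limit on strands as for Zeb2. Nfatc3 fell over both hairpins (log2 change -0.20, limma adjusted p = 0.00835). Esrp1 was listed at 0 in all 6 libraries. Grhl2 was at 0.190 and 0.223 FPKM with shRNA1 and 0.171 and 0.058 FPKM with shRNA3, against 0.116 and 0.104 FPKM in WT. Both shRNA1 libraries and shRNA3 replicate 1 were above WT and shRNA3 replicate 2 was below it, and the exact permutation test over both hairpins gave p = 0.4 (two-sided). The same exact permutation test gave p = 0.667 for Zeb1 and p = 1 for Twist2.

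By mean level over the 6 libraries the order was Snai1 (40.9 FPKM), Twist1 (21.0), Zeb2 (11.7), Esrp2 (2.37), Grhl2 (0.144), Zeb1 (0.0975), Prrx1 (0.0802) and Twist2 (0.0288), with Snai2 and Esrp1 at 0. The ranges of Snai1, Twist1, Zeb2, Esrp2 and Grhl2 over the libraries did not overlap. Grhl2, Zeb1, Prrx1 and Twist2 overlapped with their neighbours and were not separated beyond their spread. Within single libraries the level of Snai1 was 1.49 to 2.32 times that of Twist1 and 2.38 to 4.57 times that of Zeb2. The level of Zeb2 was 4.05 to 5.88 times that of Esrp2.

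**Figure D2:**
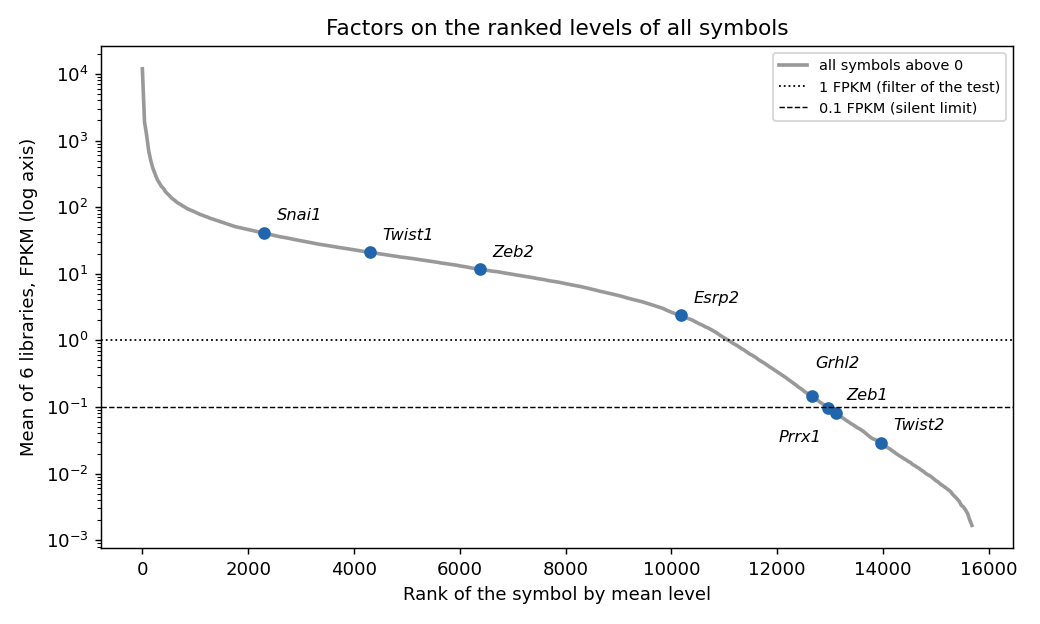
Mean level over the 6 libraries in FPKM (log axis) against the rank of each symbol, with the 8 factors listed above 0 as dots on the curve of all symbols; the dotted line is 1 FPKM and the dashed line 0.1 FPKM. Snai1 ranks 2299, Twist1 4298, Zeb2 6386 and Esrp2 10174, and the other factors fall beyond the line at 1 FPKM.

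The start regions of the expressed factors are shown because the best known binding sequence of SNAIL and ZEB proteins, the E-box CACCTG with its reverse complement CAGGTG, can be looked for in them. RefSeq windows on GRCm38.p6, from 250 bases before to 50 after the start site, were at hand for 5 of the 10 factors (Snai1, Twist1, Zeb2, Twist2 and Prrx1). The sequences of the first 3 follow, 5′ to 3′ on the strand of the gene, with the E-box in capitals. The windows are chr2:167537945-167538244 (plus strand) for Snai1, chr12:33957421-33957720 (plus strand) for Twist1 and chr2:45117393-45117692 (minus strand) for Zeb2, the last being the window of 4 for Zeb2 that is nearest to the start annotated by GENCODE.
Snai1: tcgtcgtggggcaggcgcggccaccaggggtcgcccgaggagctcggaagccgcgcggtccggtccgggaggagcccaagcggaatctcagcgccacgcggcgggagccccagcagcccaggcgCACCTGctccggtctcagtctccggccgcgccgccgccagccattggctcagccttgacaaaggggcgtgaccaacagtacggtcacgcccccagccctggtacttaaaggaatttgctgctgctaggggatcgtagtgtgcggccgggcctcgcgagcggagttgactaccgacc
Twist1: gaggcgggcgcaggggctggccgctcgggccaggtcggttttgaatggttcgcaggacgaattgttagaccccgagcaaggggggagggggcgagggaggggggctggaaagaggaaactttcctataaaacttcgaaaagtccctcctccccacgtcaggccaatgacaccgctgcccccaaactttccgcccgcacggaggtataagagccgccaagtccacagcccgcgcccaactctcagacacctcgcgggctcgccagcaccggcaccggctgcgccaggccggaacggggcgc
Zeb2: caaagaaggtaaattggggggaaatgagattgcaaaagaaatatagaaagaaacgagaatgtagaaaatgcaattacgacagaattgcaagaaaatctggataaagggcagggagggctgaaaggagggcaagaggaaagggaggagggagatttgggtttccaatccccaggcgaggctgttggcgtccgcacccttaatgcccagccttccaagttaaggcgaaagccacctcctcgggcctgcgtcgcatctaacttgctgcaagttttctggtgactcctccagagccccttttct
Snai1 held the E-box once, at position -126 from its start site, and none of the other 4 windows held it. Of all 32851 windows of the same length, 20.2% held it. The letters of an AP-1 site (TGANTCA) were in none of the 5 windows, against 7.81% of all windows. The core of a hypoxia response element (ACGTG, or CACGT on the other strand) was in the Twist1 window once, at -98, and in 19.6% of all windows. The GC box GGGCGG, or CCGCCC on the other strand, was once in the Twist1 window and 4 times in that of Twist2, and 35.7% of all windows held it. The window of Snai1 had 70% G and C with 34 CG pairs, that of Twist1 66% with 27 and that of Zeb2 49.3% with 9, against a median of 52.7% G and C over all windows. A match of letters is a description of the window and not a measured site.

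Snai1 was higher in the knockdown cells, and the test called no other expressed factor. The 4 expressed factors entered a fit over all 11079 expressed genes with limma on log2(FPKM + 1), a scale on which folds of low genes are understated. Over both hairpins against WT, 1 of the 4 was higher and 0 were lower at a Benjamini-Hochberg adjusted p under 0.05. In the same comparison 24.1% of all tested genes were higher and 25.9% lower, or 50.0% in all, so 1 call among 4 is no more than the general share. After scaling every library to an equal sum, 34.3% of the calls over both hairpins were higher (1945 genes, with 3722 lower), against 48.2% on the values as deposited (2672 higher and 2866 lower). A rise over both hairpins in which all 4 knockdown libraries lay above both WT libraries, as for Snai1, was shown by 22.2% of the tested genes.

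Snai1 averaged 48.9 ± 0.122 FPKM with shRNA1 and 43.2 ± 1.81 FPKM with shRNA3, against 30.7 ± 1.45 FPKM in WT (SD, n = 2 each). These means were 1.59-fold and 1.41-fold that of WT. The log2 change over both hairpins was 0.57 ± 0.05 (SE; 95% interval 0.46 to 0.67; limma adjusted p = 5.31e-05). Larger rises were seen in 4.30% of the tested genes, and called changes had a median size of 0.30. The rise was called with shRNA1 alone (log2 change 0.65, adjusted p = 8.31e-05) and with shRNA3 alone (0.48, adjusted p = 1.92e-04). Of the tested genes 2.89% rose more with shRNA1 and 9.08% rose more with shRNA3. These comparisons share the WT libraries, and in each the count was again 1 higher and 0 lower of 4 factors. With shRNA1, 36.0% of all tested genes were called, 17.6% higher and 18.4% lower. With shRNA3 it was 55.2%, 27.4% higher and 27.8% lower. On equal sums 34.9% of the calls with shRNA1 and 37.6% of those with shRNA3 were higher, against 48.98% and 49.7% as deposited. Snai1 was called in each of the 16 settings tried over both hairpins, with log2 changes from 0.50 to 0.61 and adjusted p from 2.84e-05 to 0.0106.

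The rise of Snai1 was smaller with shRNA3 than with shRNA1. The log2 difference of shRNA3 from shRNA1 was -0.18 ± 0.05 (SE, 95% interval -0.30 to -0.05, limma adjusted p = 0.0285), in a comparison in which 42.5% of tested genes were called, 22.0% higher and 20.5% lower. This difference ended as a call without shRNA1 replicate 1 (adjusted p = 0.0926), shRNA1 replicate 2 (0.102) or shRNA3 replicate 2 (0.158), or with replicate number as a block (0.0507), with a range over all settings of 0.0175 to 0.158. None of the other 3 expressed factors differed between the hairpins by the test.

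Twist1 did not pass the test in any of these comparisons. Its means were 22.4 ± 1.97 FPKM with shRNA1 and 20.5 ± 0.663 FPKM with shRNA3, against 20.2 ± 0.439 FPKM in WT (SD, n = 2 each). Its log2 change over both hairpins was 0.08 (95% interval -0.06 to 0.21, limma adjusted p = 0.289), so the interval leaves out a rise of the size seen for Snai1. Its change with shRNA3 was 0.02 (95% interval -0.14 to 0.17) and turned to -0.05 with libraries scaled to an equal sum, to -0.0048 without WT replicate 1 and to -0.02 without shRNA3 replicate 1. Its log2 difference of shRNA3 from shRNA1 was -0.12 (95% interval -0.28 to 0.03, adjusted p = 0.167).

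Zeb2 averaged 10.8 ± 0.224 FPKM with shRNA1 and 11.9 ± 0.475 FPKM with shRNA3, against 12.3 ± 0.276 FPKM in WT (SD, n = 2 each). The log2 change over both hairpins was -0.11 (95% interval -0.22 to 0.01, limma adjusted p = 0.124). With shRNA1 alone it was -0.17 (95% interval -0.30 to -0.03), which did not pass after adjustment (adjusted p = 0.0609). Scaling the libraries to an equal sum made Zeb2 a lower call over both hairpins (-0.17, adjusted p = 0.0461) and with shRNA1 (-0.22, adjusted p = 0.0353). Over the settings tried, the adjusted p of Zeb2 over both hairpins was 0.0461 to 0.391, and this was the one below 0.05.

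Esrp2 averaged 2.43 ± 0.288 FPKM with shRNA1 and 2.44 ± 0.510 FPKM with shRNA3, against 2.22 ± 0.0170 FPKM in WT (SD, n = 2 each). Its log2 change over both hairpins was 0.09 (95% interval -0.16 to 0.34, limma adjusted p = 0.527), the widest interval of the 4. With shRNA3 the change was 0.09 and was -0.06 without shRNA3 replicate 1. The difference of shRNA3 from shRNA1 was -0.0025 (95% interval -0.29 to 0.29), with either sign when single libraries were left out.

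**Figure D3:**
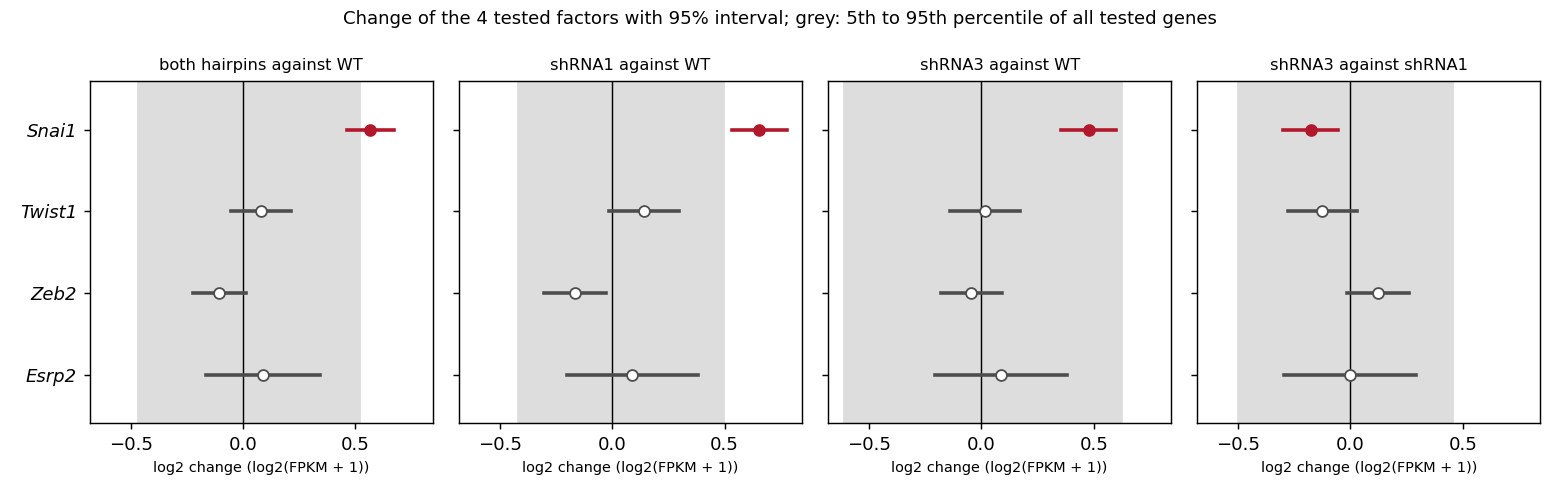
Log2 change on the log2(FPKM + 1) scale (horizontal axis) of the 4 expressed factors in each comparison, as points with 95% intervals; filled red points passed an adjusted p of 0.05, and the grey band spans the 5th to 95th percentile of all 11079 tested genes. Snai1 is the factor that passed in each of the 4 comparisons. It is outside the band at 0.57 over both hairpins and at 0.65 with shRNA1. It is within the band at 0.48 with shRNA3 and at -0.18 for shRNA3 against shRNA1.

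The levels most like those of Snai1 over the 6 libraries, by Pearson's r on log2(FPKM + 1), were those of Tomm34, a mitochondrial import gene (r = 0.999), and Dgat2, an enzyme of triglyceride synthesis (r = 0.998), and 23 genes reached 0.99. The libraries share 3 groups, so this likeness is a description of the order shRNA1, shRNA3, WT. Dgat2 was at 8.94 ± 0.197 FPKM with shRNA1 and 7.62 ± 0.552 FPKM with shRNA3, against 4.73 ± 0.421 FPKM in WT.

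Genes around the factors were followed in 9 lists, and their counts over both hairpins stand against the 24.1% higher and 25.9% lower of all tested genes. Among the dimerization partners and antagonists of TWIST proteins, the E proteins and ID proteins, 2 of 7 rose and 4 fell, with a median log2 change of -0.19. With shRNA1 2 were higher and 2 lower (median 0.05), against 17.6% and 18.4% of all tested genes. With shRNA3 1 was higher and 4 were lower (median -0.22), against 27.4% and 27.8%. Id2, an inhibitor of E proteins, rose to 15.6 ± 0.192 FPKM with shRNA1 and 15.9 ± 0.832 FPKM with shRNA3, against 9.22 ± 0.321 FPKM in WT. Id1, another inhibitor of this kind, fell over both hairpins (-0.58, limma adjusted p = 6.96e-04), at 121 and 103 FPKM with shRNA1 and 42.4 and 48.6 FPKM with shRNA3, against 102 and 113 FPKM in WT, so that the shRNA1 libraries overlapped with WT. Its log2 change was -1.22 with shRNA3 and 0.05 with shRNA1, the second not passing the test (limma adjusted p = 0.682) and turning to -0.0025 on equal sums. Id4 rose (0.42, limma adjusted p = 0.0304, 0.0121 to 0.211 over the settings), a call that ended without WT replicate 1 (0.211), shRNA1 replicate 2 (0.0611), shRNA3 replicate 1 (0.0666) or shRNA3 replicate 2 (0.0653), and also with no filter on low genes (0.0730). Without any 1 of these 4 libraries the list had 1 rise.

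Of 13 tested corepressors and chromatin partners, 4 rose and 4 fell (median -0.07). Ctbp1, a corepressor recruited by ZEB proteins, fell (-0.41), and Ajuba, a LIM protein that binds SNAIL proteins, and the corepressor scaffold Sin3a rose (0.31 and 0.22). Without WT replicate 1 only 2 of this list rose and 2 fell, without WT replicate 2 only 2 rose, and on equal sums 2 rose and 6 fell. Calls over all tested genes also dropped without these libraries, to 3914 without WT replicate 1 (1921 higher and 1993 lower) and 4117 without WT replicate 2 (2088 and 2029), against 5538, and to between 4894 and 5029 without 1 of the knockdown libraries, so fewer calls in a list are read beside these counts. The median of the corepressors was -0.03 without WT replicate 1 and -0.13 on equal sums. By single hairpin it was 0.02 with shRNA1 and -0.11 with shRNA3. Of 17 genes that act on the stability of SNAIL or ZEB proteins, 5 rose and 3 fell. Their median of -0.0084 had no stable sign, at 0.02 without WT replicate 1, 0.0047 without shRNA1 replicate 1, -0.05 without WT replicate 2 and -0.07 on equal sums. The ubiquitin ligase gene Siah1a fell (-0.44), and the kinase genes Pak1, whose product phosphorylates SNAI1 in human cells, and Csnk1e rose (0.34 and 0.32).

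Of 12 tested other transcription factors linked to the transition, 3 rose and 6 fell (median -0.22), and 4 more of the 16 listed were silent by the rule used above. Hmga2, a chromatin protein of embryonic and tumour cells, fell (-1.01), with 46.0 ± 0.775 FPKM in shRNA1 and 18.8 ± 1.05 FPKM in shRNA3, against 60.6 ± 0.824 FPKM in WT. Ets1 rose (0.60) and the forkhead gene Foxc2 fell (-0.53, limma adjusted p = 0.0124, 0.00419 to 0.118 over the settings). The call of Foxc2 ended without WT replicate 1 (0.0606) or WT replicate 2 (0.0605). Of 18 epithelial transcription factors, 6 were silent and 9 were tested, of which 3 rose and 3 fell (median 0.07). Elf3, an epithelial ETS factor, and the p63 gene Trp63 rose (0.59 and 0.56), and the GATA-type repressor gene Trps1 fell (-0.39). With single hairpins Trp63 passed with shRNA3 (0.89) and Foxc2 likewise (-0.73), while with shRNA1 the log2 changes of 0.22 and -0.32 had limma adjusted p of 0.171 and 0.138. In the list of epithelial factors, without WT replicate 1 or WT replicate 2 the number that fell was 1. The median of this list was -0.03 without WT replicate 1, 0.16 without WT replicate 2 and 0.0025 on equal sums.

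Of 20 other splicing regulators of the transition, 10 fell and 3 rose (median -0.12). Srsf1, Srsf6 and Hnrnpm fell most (-0.66, -0.66 and -0.61), and Hnrnpm, which in human mammary cells counteracts ESRP1 at Cd44, was at 106 ± 2.41 FPKM with shRNA1 and 62.9 ± 0.477 FPKM with shRNA3, against 125 ± 2.77 FPKM in WT. The rises in this list numbered 0 without WT replicate 2 and on equal sums, and 1 without WT replicate 1, shRNA1 replicate 1 or shRNA3 replicate 1, with medians of -0.18 without WT replicate 2 and on equal sums. Of 18 genes with exons controlled by ESRP proteins, as whole genes, 7 rose and 3 fell (median 0.04). Macf1 and Dnm2 rose (0.33 and 0.27), and Fgfr2, the receptor gene whose epithelial form needs ESRP proteins, fell (-0.26). On equal sums the ESRP list had 3 rises, 5 falls and a median of -0.03, and it had 4 rises without WT replicate 1, WT replicate 2 or shRNA3 replicate 2. Its median over both hairpins was 0.02 to 0.07 with single libraries left out. The hairpins differed in sign. With shRNA1 7 of the 18 were higher and 2 lower (median 0.09), against 17.6% and 18.4% of all tested genes. With shRNA3 5 were higher and 5 lower (median -0.05), against 27.4% and 27.8%.

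Genes that SNAIL, ZEB and TWIST proteins are known to repress were 29 in number, of which 19 were tested and 6 were silent. Of the 19, 9 rose and 2 fell, with a median log2 change of 0.19. The list holds 6 of the 7 carcinoma markers, and the 7 summed to 1048 and 1121 FPKM with shRNA1 and 763 and 767 FPKM with shRNA3, against 951 and 987 FPKM in WT. That sum is nearly all Krt8 and Krt18, and the members went both ways. Krt8 was 0.618-fold WT with shRNA3, where Epcam was 1.55-fold and Cldn3 1.26-fold WT. The 6 markers tested are not the same 6, since they include Krt7, which is outside the list, and leave out Cldn7. Of these 6, 2 were higher and 1 lower over both hairpins. With shRNA1 4 were higher and 0 lower, and with shRNA3 2 were higher and 2 lower. The part of these markers in the count was not tested. The desmosomal genes Pkp2 and Dsp and the mucin gene Muc1 rose most (1.37, 0.64 and 0.66). Dsp was at 0.988 and 0.987 FPKM in WT, below the 1 FPKM of the filter. Its mean passed the filter through knockdown values of 1.58 to 2.52 FPKM, so its place among the 9 rises depends on the groups where it was high. Pkp2 was at 10.5 ± 0.00424 FPKM with shRNA1 and 10.2 ± 0.107 FPKM with shRNA3, against 3.38 ± 0.0537 FPKM in WT. The falls in this list numbered 1 without WT replicate 1, WT replicate 2, shRNA3 replicate 1 or shRNA3 replicate 2. Of 13 tested mesenchymal genes linked to the factors 7 rose and 2 fell (median 0.17), and 4 of the 20 listed were silent. The median was 0.03 on quantile-normalized values and 0.10 on equal sums. The list holds 4 of the 8 fibroblast markers, of which 3 were tested, with Col1a1 higher, Pdgfra lower and Pdgfrb not passing, and their part in the count was not tested. The collagen gene Col1a1 rose (0.66) from 0.721 and 0.743 FPKM in WT, below the 1 FPKM of the filter. Its mean passed the filter through its knockdown levels, so its place among the 7 rises depends on the groups where it was high. The Polycomb gene Bmi1, a target of TWIST1 in human cells, fell (-0.76).

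When shRNA1 and shRNA3 libraries were treated as 4 replicates of a single group, Snai1 was still called (log2 change 0.57, limma adjusted p = 0.0106). In that fit 1513 of the 11079 genes were called, 798 higher and 715 lower, and the list counts that follow stand against these numbers. The calls of Id1, Id4, Ajuba, Sin3a, Hmga2, Foxc2, Elf3, Trp63, Srsf1, Srsf6 and Hnrnpm ended. Of the 19 tested genes known to be repressed by the factors 5 then rose and 0 fell, of the 13 mesenchymal genes 4 rose and 2 fell, and of the 20 splicing regulators 0 rose and 1 fell. In the remaining lists 1 rose and 0 fell among the partners, 0 and 1 among the corepressors, 2 and 2 among the stability genes, 2 and 3 among the other transcription factors, 0 and 1 among the epithelial factors, and 2 and 1 among the ESRP list.

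**Figure D4:**
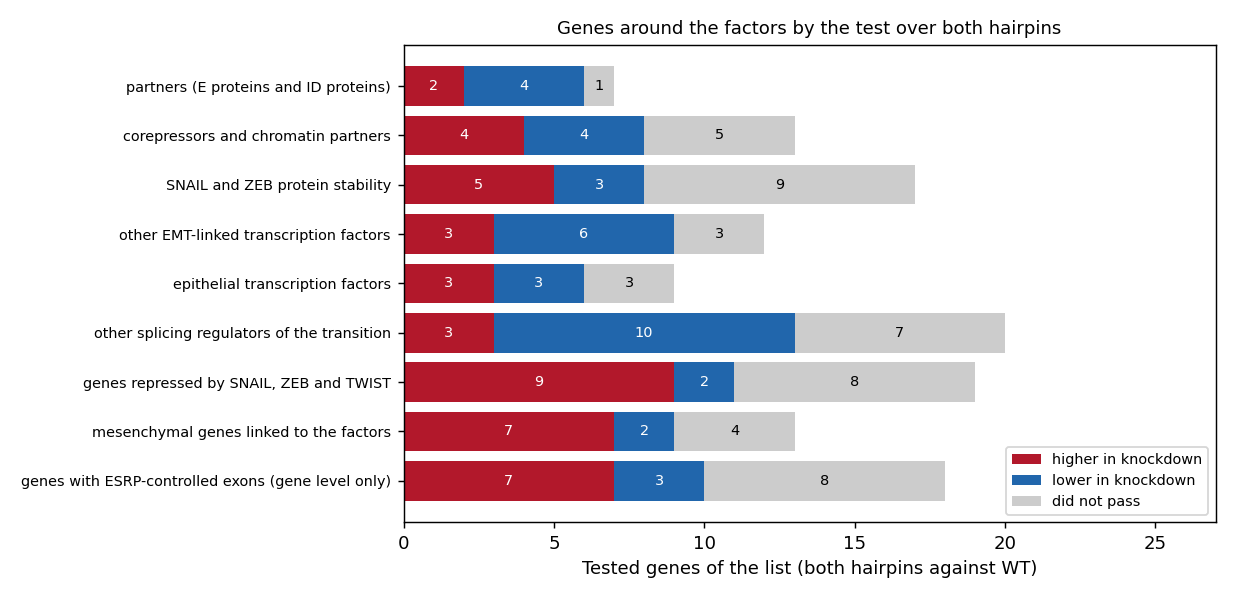
Number of tested genes (horizontal axis) in each of the 9 lists around the factors that were higher, lower or did not pass (limma, adjusted p of 0.05) over both hairpins against WT. The list of genes repressed by SNAIL, ZEB and TWIST proteins has 9 higher and 2 lower of 19, and that of other splicing regulators has 3 higher and 10 lower of 20.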

How the data were processed

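RNA of 4T1 cells was made into strand-specific mRNA libraries, per the labels' protocols. The authors deposited 1 value per gene symbol and library. The unit, FPKM, was inferred from the 3 decimals, the lack of a common sum and the presence of Cufflinks (2.2.1) among the tools in the submitters' processing notes, which list besides it SAMtools 0.1.19, Bowtie2 2.2.3, TopHat2 2.0.13 and mm10, with no order. No source used here names the annotation, the strand setting or the handling of multiply mapped reads.

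The 11079 genes averaging 1 FPKM or more were fitted as log2(FPKM + 1) with limma 3.58.1 (R 4.3.3), as a means model of the 3 groups over 6 libraries with a trend in the prior variance (3 residual and 4.96 prior degrees of freedom), two-sided, Benjamini-Hochberg adjusted over all tested genes. The files hold no counts, so no count test was run. Factors below the filter were compared with exact permutation tests (SciPy 1.17.1). Annotation came from GENCODE release M21 on GRCm38, the assembly of mm10, and promoter windows from RefSeq. The fit was tested on simulated data in which few genes changed, each by the same amount with both hairpins. In the real data 50.0% of genes were called over both hairpins and 42.5% between the hairpins. The simulation therefore does not show how the fit performs on these data. The members and lists were chosen with earlier results of these data known. Genes named from the lists are up to 3 called members of each with the largest change over both hairpins, of which 1 is not reported here, and genes alike Snai1 are the 2 with the highest r. Of the list names, Patj was read under its older symbol Inadl. Alternatives were 2 pseudocounts (0.1 and 0.5), no filter or a mean of 5 FPKM, median-of-ratios, same-total and quantile scaling, the replicate number as a block, the knockdown libraries as 1 group, and leaving out each library.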

Additional observations from a re-analysis of the deposited data

Results flagged for a closer look

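The response to knockdown differed between the hairpins, by the test of shRNA3 against shRNA1 (limma, Benjamini-Hochberg adjusted p under 0.05), for 1 of the 4 expressed factors and for 12 of the 26 genes named from the lists around them (46.2%). Of all tested genes 42.5% were called in this comparison, and nothing particular to the factors or the lists is read from these shares. The log2 difference of Snai1 was -0.18. Among genes lower with shRNA3 than with shRNA1, the differences were -1.28 for Id1, -1.25 for Hmga2, -0.76 for Srsf1, -0.74 for Hnrnpm, -0.65 for Srsf6, -0.22 for Ctbp1 and -0.17 for Bmi1. Among genes higher with shRNA3, they were 0.67 for Trp63, 0.39 for Elf3, 0.33 for Ets1, 0.26 for Ajuba and 0.16 for Sin3a. The difference of Snai1 ended as a call without shRNA1 replicate 1, shRNA1 replicate 2 or shRNA3 replicate 2, as given above. That of Ajuba ended without shRNA3 replicate 2 (limma adjusted p up to 0.0524), that of Elf3 without shRNA1 replicate 2 or shRNA3 replicate 2 (up to 0.0765), that of Sin3a without any 1 of the 4 knockdown libraries (up to 0.108), and that of Bmi1 without any 1 of the 6 libraries (up to 0.193). Groups of 2 libraries are too small to look for single libraries that stand apart.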

How the results depend on the processing

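The count of expressed factors called was 1 in each comparison with WT under all settings tried, except with libraries rescaled to the same total, where it was 2 over both hairpins and 2 with shRNA1, Zeb2 being added. For shRNA3 against shRNA1 it was 0 to 1 with single libraries left out. The number of silent factors was 6 with a limit of 0.5 FPKM and 6 with 1 FPKM, and 3 to 4 with single libraries left out. Signs turned only for changes that had not passed the test. Rescaled to the same total, the change with shRNA1 of Id1 was -0.0025 and that with shRNA3 of Twist1 was -0.0543, and with quantile normalization the difference of shRNA3 from shRNA1 of Esrp2 was 0.0437. With single libraries left out, the change of Id1 with shRNA1 was -0.0635 to 0.17, those of Twist1 and Esrp2 with shRNA3 were -0.0152 to 0.0479 and -0.0641 to 0.24, and the differences of shRNA3 from shRNA1 were -0.15 to 0.15 for Esrp2, -0.0307 to 0.0700 for Id2, -0.14 to 0.22 for Muc1 and -0.0140 to 0.14 for Macf1. Over all genes, 1513 were called with the knockdown libraries as 1 group, against 5538 over both hairpins, and 2604 without shRNA1 replicate 2, against 3989 with shRNA1. The cause was not tested.

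The main fit did not pair libraries by the replicate numbers in the titles. Differences between replicate 1 and replicate 2 correlated over tested genes at 0.01 for WT and shRNA1, -0.07 for WT and shRNA3, and 0.20 for shRNA1 and shRNA3. These correlations do not settle whether libraries of the same number were handled together. With the replicate block, 5205 genes were called over both hairpins, and 0 of the factors were called for shRNA3 against shRNA1, Snai1 having an adjusted p of 0.0507.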
